A study of Mus musculus with 76 samples.

Results

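The 32 genes described here include those for enzymes of serine synthesis and folate one-carbon metabolism. They also include the amino acid response factor Atf4 with 3 biosynthetic enzymes of that response, and 20 genes for aminoacyl-tRNA synthetases or their subunits. They were taken by symbol from a table of 15192 genes, and all 32 were listed. The RNA came from 76 single mouse cells called iHPCs, blood progenitors raised in culture from pluripotent stem cells in which Runx1, Hoxa9 and Hoxa10 could be induced together. All cells carried these 3 inducible factors, and no uninduced or primary progenitor is among them. The labels tie no cell to a culture, an animal, a clone or a sort. The 76 cells therefore formed 1 group and counted as 1 sample. Cells are not replicates of a condition: every value below describes these cells, and no p-value was made.

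Serine is made from the glycolytic intermediate 3-phosphoglycerate in a short chain of steps by Phgdh, Psat1 and Psph. Serine hydroxymethyltransferase then moves a carbon unit from serine to tetrahydrofolate, in the cytosol through Shmt1 and in mitochondria through Shmt2. The unit is used to build purines and thymidylate, which dividing cells need for DNA, and to make methionine. Aminoacyl-tRNA synthetases charge each tRNA with its amino acid before translation. When amino acids run short, the kinase Gcn2 phosphorylates eIF2, Atf4 protein is translated, and Atf4 binds response elements at genes of amino acid synthesis, uptake and tRNA charging.

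The sequences below show letters known as an Atf4 response element, which some of these genes carry near their start. Promoter windows from 250 bases before to 50 bases after a start site were taken from RefSeq for GRCm38.p6 and held 25 of the 32 genes. Each was searched on both strands for TGATGNAA, the core of the C/EBP-Atf response element. A match was found in 7 of 25 genes, namely Asns, Pycr1, Aars, Gars, Iars, Tars and Yars, against 2.94% of the 10881 genes of the table with a window. None of the 8 serine and folate genes held a match in its window. Atf4 sites outside the windows or with other letters were not searched, and whether Atf4 acts on these genes was not tested. A match is a description of letters in a window, and the windows follow RefSeq starts, of which 17 of 26 were the annotated start of the gene. Of the genes shown, the start used for Aars and Yars lay inside the annotated gene. The same held for Eprs, Farsa, Mthfd1, Mthfd1l, Mthfd2, Psph and a window of Psat1, which had another window at its annotated start. The stretches shown run from 170 bases before to 30 bases after the start, 5′ to 3′ along the gene, with TGATGNAA or its reverse complement in capitals. Asns is shown as the amino acid response gene, Aars, Gars and Yars as synthetases with a match, and Shmt1 as the folate gene without one.
Asns, chr6:7693180-7693379, minus strand: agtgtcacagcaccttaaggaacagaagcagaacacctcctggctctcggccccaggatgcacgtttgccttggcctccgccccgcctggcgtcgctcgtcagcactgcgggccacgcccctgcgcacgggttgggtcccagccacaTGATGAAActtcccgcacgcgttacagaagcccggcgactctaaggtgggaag
Aars, chr8:111033672-111033871, plus strand: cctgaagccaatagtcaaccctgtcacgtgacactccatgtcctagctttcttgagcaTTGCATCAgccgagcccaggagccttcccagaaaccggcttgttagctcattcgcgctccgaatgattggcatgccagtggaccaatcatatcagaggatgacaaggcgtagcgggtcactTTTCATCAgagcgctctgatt
Gars, chr6:55037831-55038030, plus strand: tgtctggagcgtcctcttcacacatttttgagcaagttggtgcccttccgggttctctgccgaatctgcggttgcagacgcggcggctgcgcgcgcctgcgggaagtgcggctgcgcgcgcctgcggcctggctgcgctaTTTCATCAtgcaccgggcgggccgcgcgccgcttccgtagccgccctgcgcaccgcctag
Yars, chr4:129189733-129189932, plus strand: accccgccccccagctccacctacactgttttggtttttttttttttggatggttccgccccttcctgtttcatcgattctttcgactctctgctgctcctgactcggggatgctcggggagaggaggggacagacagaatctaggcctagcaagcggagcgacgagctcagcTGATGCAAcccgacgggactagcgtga
Shmt1, chr11:60811236-60811435, minus strand: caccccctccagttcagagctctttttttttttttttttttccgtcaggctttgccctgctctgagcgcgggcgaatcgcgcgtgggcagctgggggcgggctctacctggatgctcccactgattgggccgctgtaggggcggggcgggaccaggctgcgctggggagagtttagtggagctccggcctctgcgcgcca
The match lay 23 bases before the start in Asns, 30 bases before it in Gars and 3 bases after it in Yars. Aars held 2 matches, 112 bases before the start and 9 bases after it. The E2F site letters TTTGGCGC, TTTCCCGC, TTTGCCGC and TTTCGCGC, sought because E2F factors drive many S phase genes, were in none of the 25 genes and in 4.37% of the genes of the table with a window. The E-box CACGTG, the core bound by Myc and related factors, was in 5 of the 25 genes (Aars, Aldh18a1, Farsb, Iars and Tars) against 11.1% of those genes.

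Expression was given as TPM, a share of all transcripts scaled for gene length, and each cell summed to 1000000 over the listed genes. The read depth of the cells is unknown. A gene was called detected at 1 TPM or more, and between 2465 and 5992 genes were detected in a cell, with a median of 4182.5. An exact 0 can be a transcript that was missed. Of all values of the 32 genes, 26.97% were 0 and 4.81% lay from 1 to 10 TPM, so most genes were either high or near absent in a given cell. Blood cell genes were present throughout: all 10 genes of a general haematopoietic list were detected in at least 38 cells, and Coro1a and Lsp1, actin-binding proteins of leukocytes, in all 76. The pluripotency genes Pou5f1, Esrrb and Klf4, the fibroblast collagens Col1a1 and Col1a2 and the endothelial receptors Kdr and Tek were detected in 0 cells (exact 95% upper bound 4.74% of cells, for cells with a value of 1 TPM and not for missed transcripts). Of the other pluripotency, fibroblast and endothelial markers listed, Dppa5a was detected in 1 cell, Sparc in 2 and Pdgfrb in 22, and Emcn in 7, Plvap in 18, Pecam1 in 24 and Egfl7 in 73. Pecam1 and Egfl7 are also expressed by blood progenitors. The endothelial markers summed to a median of 523.1 TPM and the fibroblast markers to a median of 0, and the part of such cells or genes in the results was not tested. Among 7 macrophage genes, C1qb and Mrc1 were detected in 0 cells, C1qa in 1, Apoe in 14, Csf1r in 20, Cd68 in 25 and Adgre1 (listed as Emr1) in 60, and the list summed to between 0 and 2284 TPM with a median of 207.9. The macrophage score had a rho of 0.00 with the S phase score used below.

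As a set, the 32 genes were broadly detected: 24 of them reached 1 TPM in at least 38 of the 76 cells, against 23.1% of all listed genes. A cell held between 8 and 32 of them, with a median of 20.5. All 32 were detected in 2 cells, which lay near the top of the range of genes detected, and the count of these genes per cell followed the number of genes detected with a Spearman rho of 0.79. Cells with the title numbers 10 and 11 held fewer genes (medians of 3638 and 3792) and fewer of the 32 genes (medians of 14 and 18) than the other title numbers, whose medians ran from 18.5 to 23.5. The labels do not say what the numbers stand for. Values for numbers 2 to 6 and 7 to 11 are given apart where they differed.

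**Figure D1:**
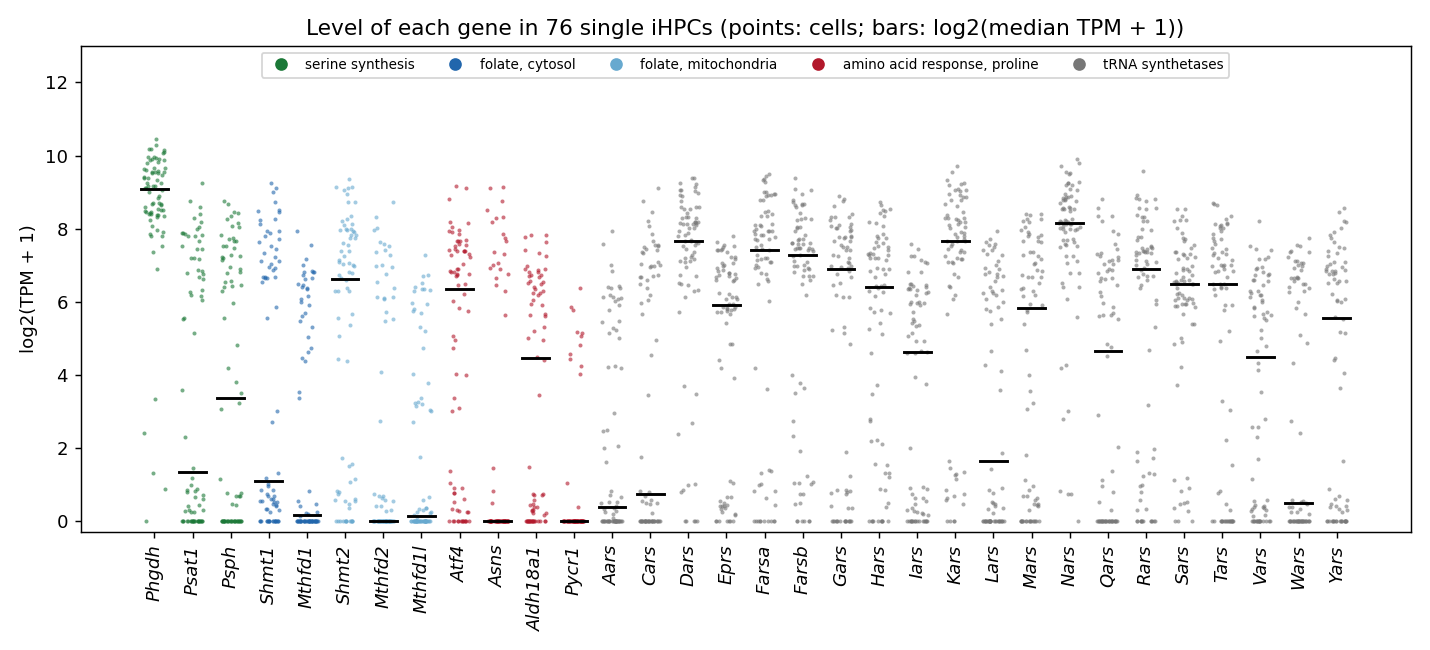
TPM of each of the 32 genes in each of the 76 cells (points, as log2(TPM + 1)), grouped by role, with the median over cells as a bar. Phgdh and Nars lie high in nearly all cells, while Mthfd2, Asns and Pycr1 have a median of 0 and a minority of cells with a clear signal.

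Phgdh, which catalyses the first and committed step of serine synthesis, was the highest of the 32 genes by median. It ranged from 0 to 1409 TPM with a median of 543.1 and was detected in 74 of 76 cells (97.4%, exact 95% interval 90.8 to 99.7%, which covers the counting of cells only). Its level was above 100 TPM in 71 cells, so nearly all cells carried it strongly. The later enzymes of the chain were found in about as many cells as each other and in far fewer than Phgdh. Psat1, the aminotransferase of the middle step, ranged from 0 to 607.0 TPM with a median of 1.51 and was detected in 39 cells (interval 39.57 to 62.96%). Psph, the phosphatase of the last step, ranged from 0 to 432.3 TPM with a median of 9.37 and was detected in 41 cells (interval 42.1 to 65.5%). In the cells that held them, the medians were 144.3 TPM for Psat1 and 145.6 TPM for Psph, against 555.3 TPM for Phgdh. All 3 enzymes were detected together in 26 cells (34.2%, interval 23.71 to 45.99%), and 1 cell held none. Psph shares 88 bases with Cct6a, a chaperonin subunit detected in 70 cells, and whether counting used strand is not given in the sources used here, so its value is uncertain to that extent.

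In the cytosolic folate branch, Shmt1 and Mthfd1 were absent or near absent in many cells and clear in others. Shmt1, which passes the carbon unit of serine to folate, ranged from 0 to 608.3 TPM with a median of 1.14 and was detected in 39 cells (interval 39.57 to 62.96%). Mthfd1, the trifunctional enzyme that interconverts folate carbon units for purines and thymidylate, ranged from 0 to 242.1 TPM with a median of 0.12 and was detected in 31 cells (interval 29.6 to 52.7%). They tended to occur in the same cells: both were detected in 25 cells, which is 64.1% of the cells with Shmt1 and 80.7% of those with Mthfd1, and neither in 31.

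In the mitochondrial branch, Shmt2 was the most widely detected gene and the enzymes after it were sparse. Shmt2 ranged from 0 to 651.7 TPM with a median of 97.5 and was detected in 54 cells (interval 59.5 to 80.9%). Mthfd2, the dehydrogenase and cyclohydrolase that is high in embryonic and tumour cells, ranged from 0 to 426.7 TPM with a median of 0 and was detected in 25 cells (interval 22.5 to 44.6%). Mthfd1l, which releases formate for export to the cytosol, ranged from 0 to 155.3 TPM with a median of 0.095 and was detected in 28 cells (interval 26.1 to 48.7%). All 3 were found together in 10 cells and none in 14. Across compartments, 34 cells held both Shmt1 and Shmt2, 20 held Shmt2 without Shmt1, 5 held Shmt1 without Shmt2, and 17 held neither. All 8 serine and folate genes were detected in 5 cells.

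Atf4 and its enzymes differed in how many cells held them. Atf4, the transcription factor of the response, which is controlled largely at translation, ranged from 0 to 573.7 TPM with a median of 80.3 and was detected in 52 cells (interval 56.8 to 78.6%). Asns, which makes asparagine and is a standard Atf4 target, ranged from 0 to 563.1 TPM with a median of 0 and was detected in 22 cells (interval 19.1 to 40.5%). Of the 2 proline synthesis enzymes, Aldh18a1 ranged from 0 to 227.8 TPM with a median of 20.8 in 41 cells (interval 42.1 to 65.5%). Pycr1 ranged from 0 to 81.4 TPM with a median of 0 in 12 cells (interval 8.43 to 25.96%), under the 20 cells required for a correlation with a score. Asns was accompanied by Atf4 in 18 of its 22 cells (81.8%), while 34 of the 52 cells with Atf4 lacked Asns. All 4 genes were detected in 5 cells and none in 13.

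The 20 synthetases were the most evenly detected of the 3 groups, with 17 of them in at least 38 cells and between 5 and 20 per cell (median 15). Nars, for asparagine, was highest, with a range of 0 to 950.7 TPM and a median of 281.5 in 72 cells. Dars, for aspartate, and Kars, for lysine, came next with medians of 202.1 and 201.6 TPM in 68 and 66 cells. These neighbours in the order overlapped almost wholly from cell to cell. Farsa and Farsb, the catalytic and regulatory subunits of the same phenylalanine enzyme, had medians of 170.5 and 153.9 TPM in 61 and 65 cells. They were detected together in 53 cells, with neither in 3. Below them, Rars, Gars, Sars, Tars, Hars, Eprs, Mars and Yars had medians of 117.7, 117.4, 88.4, 87.8, 83.3, 58.6, 56.2 and 45.95 TPM in 58, 52, 66, 53, 62, 56, 48 and 46 cells. They charge arginine, glycine, serine, threonine, histidine, glutamate with proline, methionine and tyrosine. Qars, Iars and Vars, for glutamine, isoleucine and valine, had medians of 23.9, 23.8 and 21.6 TPM in 43, 44 and 47 cells. The sparsest were Lars, Cars, Wars and Aars, for leucine, cysteine, tryptophan and alanine, with medians of 2.15, 0.67, 0.42 and 0.31 TPM in 39, 36, 35 and 31 cells. Even these reached between 214.1 and 551.7 TPM in their highest cell. Aars, Farsb, Hars, Mars and Wars overlap another listed gene, but each of those (Ddx19b, Sgpp2, Hars2, Ddit3 and Wdr25) was detected in 26 cells or fewer.

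The mitochondrial synthetases, which charge tRNA for the few proteins made inside mitochondria, were sparser: 3 of 17 were in at least 38 cells (Lars2 in 76, Rars2 in 50 and Yars2 in 41), and Tars2 was in 34. Lars2 had a median of 14.5 TPM and reached 100 TPM in 1 cell, against 38 cells for Rars2 and 24 for Yars2. The non-enzymatic scaffold proteins of the multi-synthetase complex were well detected, with Aimp2 in 74 cells, Eef1e1 in 62 and Aimp1 in 50. Their rho with the S phase score described next was 0.40, 0.05 and 0.12. General translation factors were detected more evenly still, with 30 of 30 in at least 38 cells and Eif5a, Eef1a1, Eif4a1 and Eif1 in all 76.

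Cycle state was read from a score over 31 S phase genes, such as those of the replicative helicase, and a score over 19 G2M genes. A score was the mean over the list of log2(TPM + 1) after each gene was set to mean 0 and unit variance across the 76 cells. The S phase genes and the 32 genes share no member. All 8 serine and folate genes had a rho of at least 0.3 with the S phase score across the 76 cells, against 8.65% of the 5778 genes compared, and their median rho was 0.43 against 0.06 over those genes. Shmt1 stood highest at 0.62, rank 11 of the 5778 genes, followed by Phgdh at 0.52 (rank 48), Mthfd1 at 0.46 (rank 102) and Shmt2 at 0.44 (rank 129). Mthfd2, Psat1, Psph and Mthfd1l had values of 0.41, 0.37, 0.32 and 0.30. The points in these correlations are cells that differ in the number of genes detected, and the genes moved with that number: 5 of the 8 had a rho of at least 0.3 with the number of genes detected, against 10% of 5809 genes.

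With the number of genes detected regressed out of both sides, 3 of the 8 serine and folate genes stayed at a rho of at least 0.3, against 4.05% of genes. These were Shmt1 at 0.54, Phgdh at 0.38 and Mthfd1 at 0.32, while Psph and Mthfd1l were at 0.28, Mthfd2 at 0.25, Shmt2 at 0.23 and Psat1 at 0.18. The score of the 8 genes had a rho of 0.73 with the S phase score, and 0.59 after the regression. Among cells with the title numbers 2 to 6 (37 cells) it was 0.82, and among those with 7 to 11 (39 cells) it was 0.68.

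**Figure D2:**
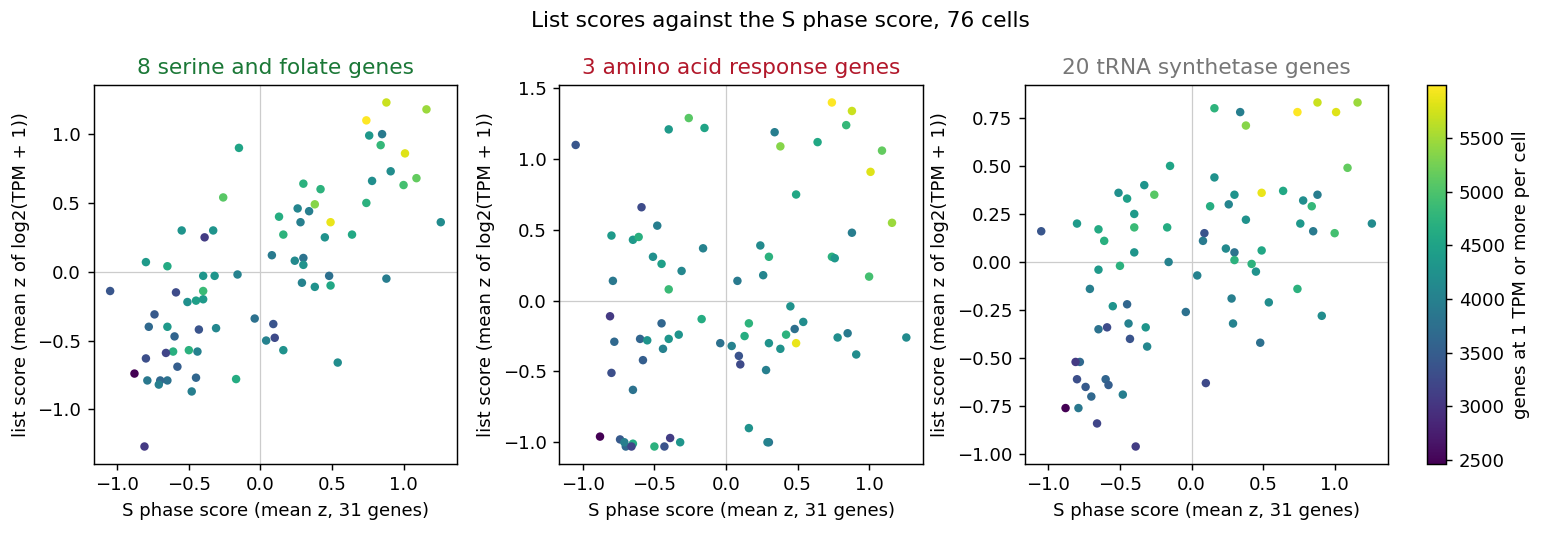
Scores of the serine and folate genes (left), the amino acid response genes (middle) and the synthetases (right) against the S phase score, 1 point per cell in all 76 cells, coloured by the number of genes detected. The left panel is the tightest (rho 0.73, against 0.32 and 0.55), and cells with many genes detected lie toward the upper right of each panel. The scores average 8, 3 and 20 genes, and the part of list size in these values was not tested.

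The other 2 groups followed the S phase score less closely by rho, a difference that was not tested. Of the amino acid response genes in at least 20 cells, 1 of 3 reached 0.3, namely Aldh18a1 at 0.38, with Asns at 0.23 and Atf4 at 0.10, and none of the 3 reached 0.3 after the regression. Their joint score had a rho of 0.32 with the S phase score and 0.07 after the regression. Of the synthetases, 8 of 20 reached 0.3: Gars (0.42), Vars (0.41), Kars and Wars (0.36), Dars (0.35), Tars (0.34), Farsb (0.33) and Lars (0.31). After the regression Farsb at 0.31 and Kars at 0.30 were the 2 at 0.3 or above. The synthetase score had a rho of 0.55 with the S phase score and 0.25 after the regression, and its rho with the number of genes detected, 0.72, was above those of the serine and folate score (0.59) and the amino acid response score (0.49). In the same cells, Nars, Sars, Mars and Cars, with values between 0.05 and 0.09, and Qars at -0.05 stood near 0 with the S phase score.

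With the G2M score, the share of these genes at a rho of 0.3 or above was near that of all genes. The median rho was 0.18 for serine and folate genes, 0.10 for amino acid response genes and 0.16 for synthetases. Over all genes compared it was 0.05. None of the 8 serine and folate genes, none of the 3 amino acid response genes and 1 of the 20 synthetases (Dars at 0.31) had a rho of at least 0.3 with the G2M score, against 3.37% of 5790 genes. The joint scores had values of 0.26, 0.21 and 0.37, and of -0.02, -0.17 and 0.01 with genes detected regressed out. These values differed between the title numbers: for serine and folate genes rho was 0.02 among cells numbered 2 to 6 and 0.51 among those numbered 7 to 11, and for the synthetases 0.10 and 0.59. For the amino acid response genes it was -0.21 and 0.53, so that its direction differed between the number ranges.

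**Figure D3:**
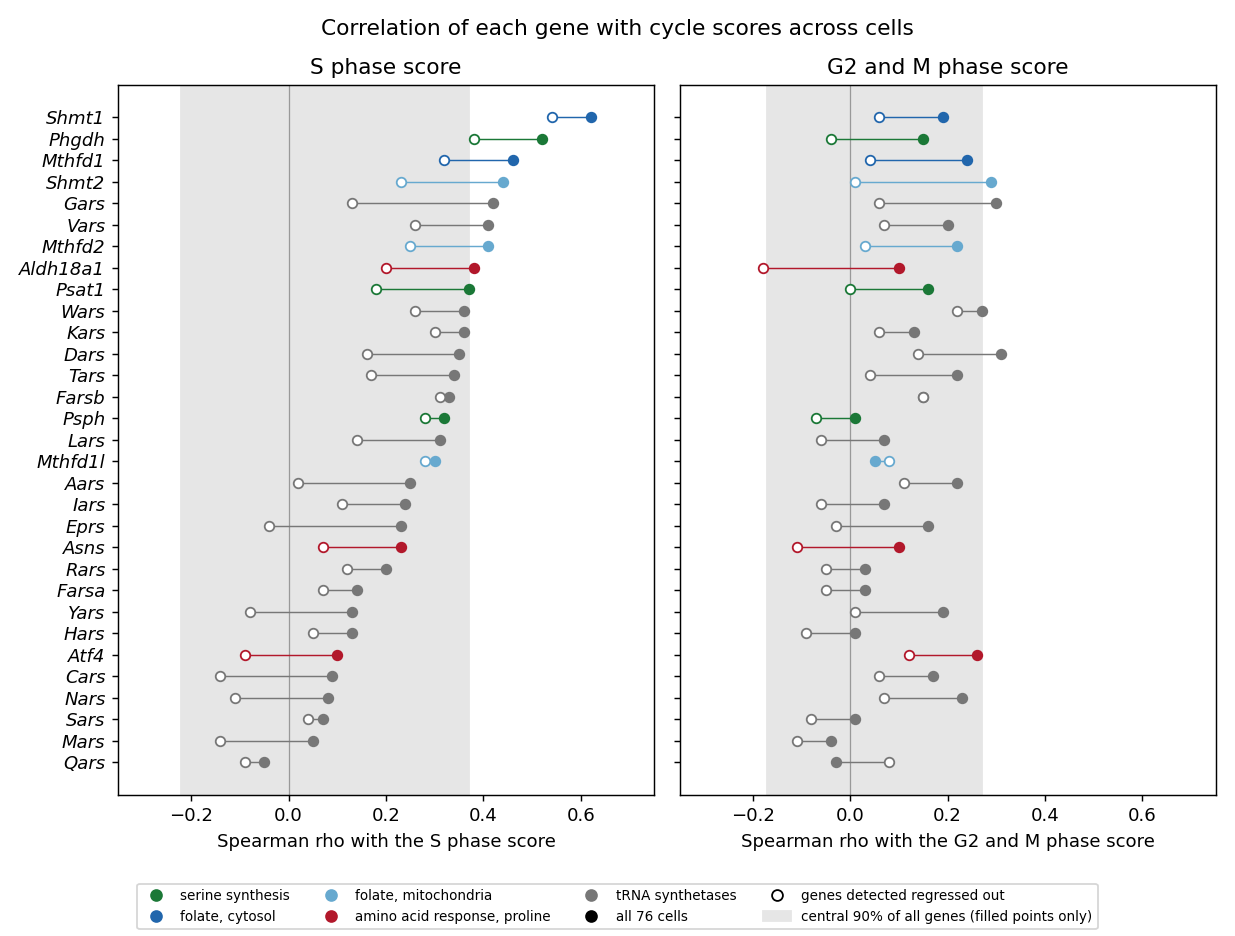
Spearman rho of each gene with the S phase score and with the G2M score across 76 cells (filled) and with the number of genes detected regressed out (open), coloured by role and ordered by the S phase value, with the middle 90% of all genes compared shaded for the filled points. Every serine and folate gene is at 0.30 or above with the S phase score, while with the G2M score they lie between 0.01 and 0.29.

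Other genes of folate use, nucleotide synthesis and the methionine cycle followed the S phase score in part. Of 31 such genes 30 were listed and 20 were in at least 20 cells, and 9 of these 20 had a rho of at least 0.3 with the S phase score, against 8.65% of genes. After the regression 5 of the 20 did, against 4.05%. Paics, a purine synthesis enzyme found in 73 cells, was at 0.68. Tyms, which makes thymidylate, was at 0.63 in 31 cells. Gart, another purine enzyme, was at 0.57, and Ahcy and Mat2a of the methionine cycle at 0.47 and 0.42. Impdh2, of guanine nucleotide synthesis, was detected in 67 cells and was at 0.39. After the regression Tyms, Paics, Gart and Ahcy were at 0.57, 0.56, 0.45 and 0.39, and Impdh2 and Mat2a at 0.27 and 0.23. Mat2b, the regulatory partner of Mat2a, was detected in 70 cells and was at -0.19, so the values of these partner subunits differed in sign. Gldc and Amt, of the glycine cleavage system, which offers another route from glycine to folate carbon, were detected in 0 of 76 cells.

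Within the serine and folate genes the mean rho over all 28 pairs was 0.25, and 13 of the pairs (46.4%) reached 0.3, against 1.05% of all pairs of genes in at least 20 cells. The closest pair was Shmt1 with Mthfd1 at 0.48, which was 0.47 with genes detected regressed out. Psat1 with Shmt1 was at 0.43, Shmt1 with Shmt2 at 0.42 and Phgdh with Shmt1 at 0.41, so these highest pairs all included Shmt1. Along the serine chain, Phgdh with Psat1 and Psat1 with Psph were both at 0.31 and Phgdh with Psph at 0.24. In mitochondria, Shmt2 with Mthfd2 was at 0.37, Mthfd2 with Mthfd1l at 0.14 and Shmt2 with Mthfd1l at -0.01. With genes detected regressed out these 3 values were 0.16, 0.22 and -0.07. With genes detected regressed out, the mean over the 28 pairs was 0.15, and 1 of the 28 pairs, Shmt1 with Mthfd1, reached 0.3, against 1.17% of all pairs.

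**Figure D4:**
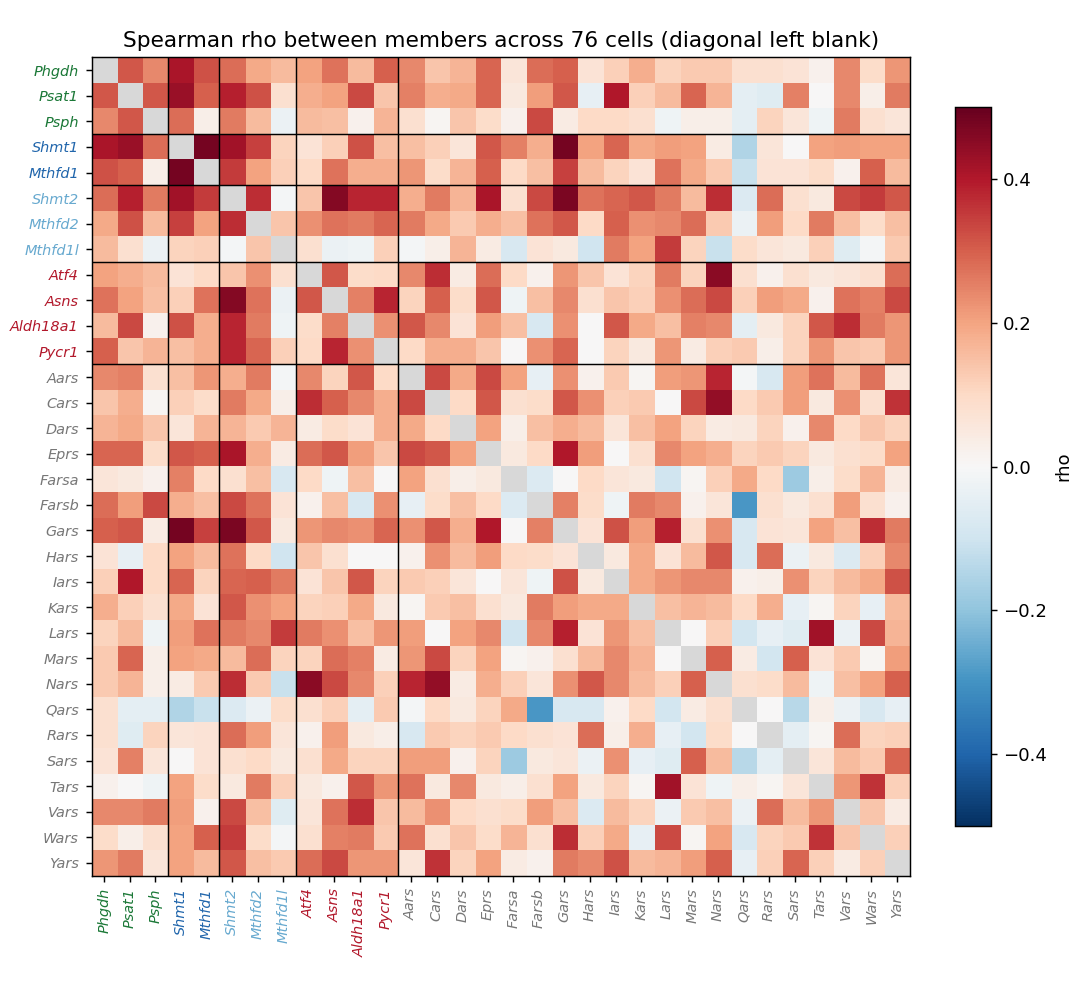
Spearman rho across 76 cells between all pairs of the 32 genes, ordered by role with black lines between the groups and the diagonal blank. The serine and folate block at the upper left is mostly positive (mean 0.25), Mthfd1l is pale, and the synthetase block at the lower right is fainter (mean 0.12), with Qars and Farsb at -0.29 as its lowest pair.

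The serine and folate score had a rho of 0.44 with the amino acid response score and 0.64 with the synthetase score across the 76 cells, and 0.18 and 0.33 with genes detected regressed out. The first value was 0.28 among title numbers 2 to 6 and 0.57 among 7 to 11. Single genes bridged the groups: Shmt2 with Asns was at 0.46, Shmt2 with Gars at 0.47 and Shmt1 with Gars at 0.48 (0.23, 0.32 and 0.30 with genes detected regressed out). By gene, Shmt2, Psat1 and Mthfd2 had the highest rho with the amino acid response score (0.46, 0.38 and 0.35), and Mthfd1l stood at 0.00. Shmt1 and Phgdh, the genes with the highest rho to the S phase score, were at 0.27 and 0.29. None of these 8 genes passed 0.18 with the amino acid response score once genes detected was regressed out.

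Among the amino acid response genes, Atf4 with Asns was at 0.31, Asns with Aldh18a1 at 0.25 and Atf4 with Aldh18a1 at 0.09. Atf4 had its closest partner among the synthetases, in Nars at 0.45. Both were detected in 51 cells, where Nars was in 72 of all 76 cells and Atf4 in 52. After the regression Atf4 was at 0.33 with Nars and 0.14 with Asns. Other genes known as Atf4 targets were unevenly detected. Eif4ebp1, an inhibitor of cap-dependent translation, was in 74 cells, the transcription factor Cebpb in 72, the amino acid transporter chain Slc3a2 in 67 and the stress protein Nupr1 in 66. Ddit3, Trib3, Chac1 and Atf3, regulators induced in the stress response, were detected in 26, 11, 5 and 2 cells. The metabolic targets Cth, Cbs, Gpt2 and Pck2 were in 1, 3, 4 and 22. Slc3a2 and its partner Slc7a5 had a rho of 0.43 and 0.39 with the amino acid response score, and the tRNA exporter Xpot 0.34. With genes detected regressed out these were 0.14, 0.33 and 0.09. Before the regression they were the highest of the 12 such targets in at least 20 cells. The other targets ran from -0.13 (Ddit3) to 0.24 (Eif4ebp1) with this score, and 3.34% of 5806 genes reached 0.3 with it. Of the 12 such targets in at least 20 cells, 2 reached 0.3 with the S phase score (Slc7a5 and Slc7a1, both at 0.32), against 8.65% of genes, and 0 did so after the regression. The eIF2 subunits Eif2s2 and Eif2s1 were in 76 and 74 cells, the eIF2B subunits Eif2b2 and Eif2b1 in 61 and 58, and the amino acid sensing kinase Eif2ak4 in 5.

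The synthetases varied widely in how closely they followed each other and the amino acid response score. Their mean pair rho was 0.12 and 18 of 190 pairs (9.47%) reached 0.3, against 1.05% of all pairs, with Cars and Nars at 0.44 the closest pair. After the regression the mean was 0.06 and 3 of the 190 pairs reached 0.3, against 1.17% of all pairs. Farsa and Farsb, whose products form 1 enzyme, were at -0.07. With the amino acid response score, 8 of 20 synthetases had a rho of at least 0.3, against 3.34% of 5806 genes. These were Nars (0.47), Cars (0.43), Yars (0.42), Eprs (0.37), Gars (0.34) and Aars, Lars and Vars (each 0.33). Of the rest, Mars was at 0.29, Wars at 0.26, Iars at 0.24, Sars at 0.23, Kars and Tars at 0.19, Rars at 0.12, Hars at 0.10, Dars at 0.07, Farsb at 0.06, Farsa at 0.03 and Qars at 0.00. With the number of genes detected regressed out, 0 of the 20 reached 0.3, and the highest was Nars at 0.27. Qars was also near 0 with the number of genes detected (0.01).

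The synthetases were also divided, after these values were seen, by whether they are widely reported as Atf4 targets. The 12 reported targets had a median rho of 0.33 with the amino acid response score (range 0.19 to 0.47), and the 8 others 0.09 (range 0.00 to 0.33). With the S phase score the medians were 0.23 (range 0.05 to 0.42) and 0.27 (range -0.05 to 0.41), so the 2 sets overlapped almost wholly there. The 12 targets also followed the number of genes detected more closely, with a median of 0.32 against 0.16. With that number regressed out, the medians with the amino acid response score were 0.15 and 0.02. Since the division was made on knowledge of the values, it is a description only. By the promoter letters shown above, the 5 synthetases with TGATGNAA had a median of 0.33 (range 0.19 to 0.42) and the 8 searched without it 0.13 (range 0.00 to 0.37), and 0.07 and 0.03 after the regression. Both sets hold genes searched at a start inside the annotated gene, Aars and Yars with the letters and Eprs and Farsa without. Nars, Cars, Lars, Hars, Rars, Vars and Wars had no window in the table and are not in that comparison.

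**Figure D5:**
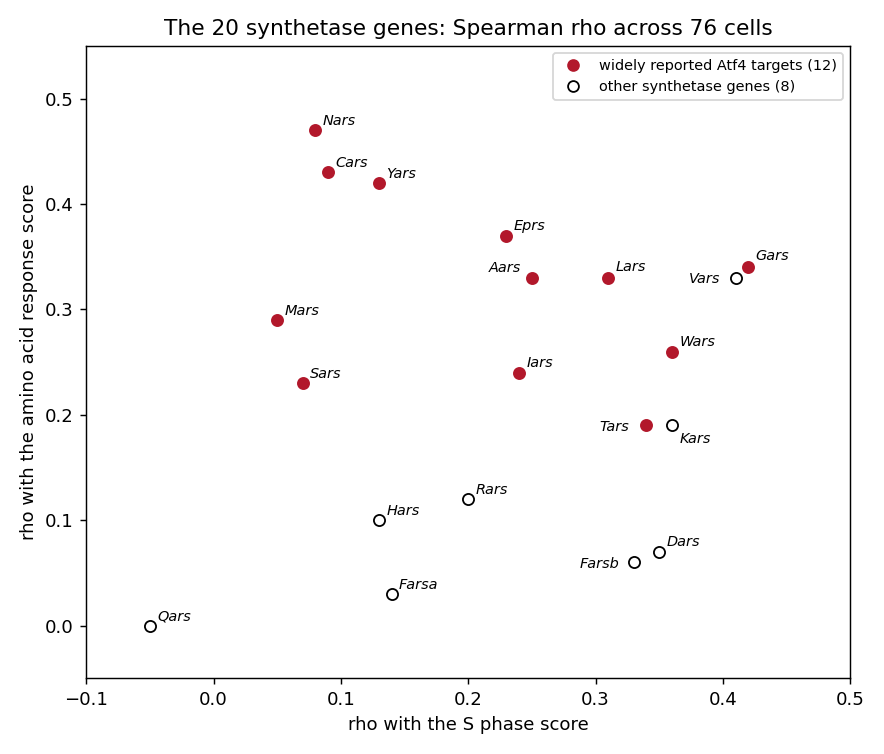
Each of the 20 synthetase genes by its Spearman rho across 76 cells with the S phase score (horizontal) and with the amino acid response score (vertical), with widely reported Atf4 targets filled. Nars, Cars and Yars are high on the vertical axis and near 0.1 on the horizontal, Dars and Farsb the reverse, and Gars and Vars are high on both.

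The amino acid response score and the synthetase score had a rho of 0.57, and 0.31 with genes detected regressed out. A score over 30 general translation factors had a rho of 0.65 with the serine and folate score, 0.65 with the synthetase score and 0.39 with the amino acid response score. With genes detected regressed out these were 0.36, 0.36 and 0.09. Outside all lists, the 5 genes closest to the serine and folate score among 5624 were Set (0.69), a histone chaperone, Ranbp1 (0.61), a regulator of the Ran GTPase, Slc25a5 (0.61), a mitochondrial ADP/ATP carrier, Tfdp1 (0.60), the partner of E2F factors, and Hspd1 (0.59), the mitochondrial chaperonin. For the synthetase score they were Anp32b (0.58), Npm1 (0.57), a nucleolar protein, Hspd1 (0.56), Slc25a5 (0.55) and the tubulin Tuba1b (0.54). Hspd1 and Slc25a5 were in both sets of 5. With genes detected regressed out, the values ran from 0.35 to 0.55 for the first set and from 0.22 to 0.45 for the other. The general haematopoietic score went the other way, with a rho of -0.35 with the S phase score and -0.19 with the serine and folate score, and of -0.48 and -0.34 after the regression. A score over 6 stem and progenitor surface genes, among them Cd48, Cd34, Ly6a and Adgrg1 (listed as Gpr56), had values of 0.01 and -0.15. After the regression these were -0.14 and -0.35, so the negative value with serine and folate genes was not particular to the general list.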

How the data were processed

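RNA of 76 single iHPCs was amplified as cDNA and made into libraries with a pair of Vazyme kits (Discover-sc WTA Kit V2, then TruePrep DNA Library Prep Kit V2), per the labels. The authors deposited 1 table of TPM values for 15192 genes, with 1 column per cell. The tools named in the submitters' processing notes are the assembler StringTie 1.3.4, the aligner HISAT2 2.1.0, SAMtools 0.1.19 and bcl2fastq, with mm10 as the genome build. Their settings, the gene annotation, the use of strand and filters on genes were not given in the sources used here. TPM keeps no read depth, so precision rests on the number of cells.

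From these values, detection (1 TPM or more) with exact Clopper-Pearson 95% intervals, log2(TPM + 1) and Spearman correlations across cells were computed with Python 3.11.15, numpy 2.4.6, pandas 2.3.3, scipy 1.17.1 and matplotlib 3.10.9, for genes detected in at least 20 cells. A gene's own list score left that gene out. Ranks and counts at a rho of 0.3 were taken over all such genes, less those of the score itself. For adjusted values the number of genes detected was regressed out. The scripts were tested on simulated data. Doublets were not called; 72 cells had under 5500 genes detected, and a setting without the others was among the alternatives.

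All 32 genes are named; from each other list the text names the 4 genes in most cells and those whose correlation is needed to read a result, and for 2 scores the 5 closest genes outside all lists. Genes detected in 0 cells, and the rarer Atf4 targets, were named after their values were seen. The genes and lists were chosen with earlier results of these data known. Alternatives changed the detection threshold, the pseudocount, the minimum number of cells, the correlation measure and the cells used. Promoter windows came from RefSeq (GRCm38.p6). Of 32 members, 25 had a window, Mars under the symbol Mars1. Coordinates of GRCm38.p6 were used only for those windows and gene overlaps.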

Additional observations from a re-analysis of the deposited data

How the results depend on the processing

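Each of 14 results was recomputed under the settings that applied to it, 148 values in all, and 127 moved by no more than 0.1 in rho or 1.5 times in a count. No result with a rho of at least 0.3 in the main setting changed direction, and results under 0.3 were not judged for direction. Of 132 correlation values 3 were below 0, all with the G2M score. They were -0.02 for serine and folate genes (0.26 in the main setting) and -0.21 and -0.17 for amino acid response genes (0.21). The largest group of exceptions came from regressing out the number of genes detected. The correlation with the S phase score was then 0.59 for serine and folate genes, 0.07 for amino acid response genes and 0.25 for synthetases. With the G2M score it was -0.02, -0.17 and 0.01. Serine and folate genes had 0.18 with the amino acid response score and 0.33 with the synthetases, and the latter 2 scores had 0.31 with each other. The mean pair rho within each group also fell, but within the limit of 0.1, which is wide for such small values. It went from 0.25 to 0.15 for serine and folate genes, from 0.22 to 0.12 for amino acid response genes and from 0.12 to 0.06 for synthetases. Among title numbers 2 to 6 (37 cells), amino acid response genes had 0.18 with the S phase score, 0.28 with serine and folate genes and 0.45 with synthetases, and the G2M values of the 3 groups were 0.02, -0.21 and 0.10 in the order above. Among title numbers 7 to 11 (39 cells), amino acid response genes had 0.46 with the S phase score and 0.57 with serine and folate genes, and the G2M values were 0.51, 0.53 and 0.59. In the 65 cells with at least 3500 genes, amino acid response genes had 0.10 with the G2M score. The cause was not tested. Leaving out title numbers 10 and 11 (61 cells left) and leaving out cells with 5500 genes or more (72 left) were chosen after seeing the data and moved none of the 14 results past these limits. No paired analysis was possible because all cells form 1 group.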
